A study of Homo sapiens with 6 samples.

Results

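The genes EGFR, ERBB2, ERBB3, MET, AXL, FGFR1, FGFR4, INSR, EPHA2 and DDR1, which encode 10 receptor tyrosine kinases, were followed by RNA sequencing in HCCLM3 cells. They were taken by gene name from the 58302 genes listed for every library, and all 10 were found. HCCLM3 is an established human hepatocellular carcinoma line with a high metastatic capacity. The cells carried either an antisense oligonucleotide (ASO) against SCARNA13, a small Cajal body-specific RNA of the class that guides modification of spliceosomal RNAs, or a Control ASO. Each group held 3 libraries, numbered 1 to 3 in the titles. All libraries came from this single cell line, and no other allele or agent is named. The study asked which genes may act downstream of SCARNA13. The 2 questions addressed here are which of these receptors the line expresses and whether their RNA differs between SCARNA13 ASO and Control ASO cells.

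Receptor tyrosine kinases are membrane proteins that bind a ligand outside the cell, pair up, phosphorylate one another on tyrosines inside the cell and so recruit adaptors of the RAS-MAPK and PI3K-AKT pathways. In liver and liver cancer, MET answers hepatocyte growth factor, FGFR4 answers FGF19 in the control of bile acid synthesis, INSR answers insulin, and AXL is known from invasive, mesenchymal-like tumour cells. ERBB3 is the exception within the group, since its kinase domain has little activity and it signals mainly through a partner such as ERBB2 or EGFR.

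That difference is visible in the coding sequence of the catalytic loop, a stretch of 8 codons that holds the aspartate needed for phosphate transfer. The third codon is in capitals below, because ERBB3 carries a codon for asparagine there while the other 5 receptors shown carry one for aspartate. The 3 EGFR-family members are shown with the receptors of highest level, AXL and EPHA2, and with MET, whose loop has the lowest GC content. Sequences are read 5′ to 3′ on the coding strand from GENCODE 29 transcripts (GRCh38).
ERBB3: catagaAACctggctgcccgaaac
EGFR: caccgcGACctggcagccaggaac
ERBB2: cacaggGACttggccgctcggaac
AXL: caccggGACctggcggccaggaac
EPHA2: caccgtGACctggctgcccgcaac
MET: cacagaGACttggctgcaagaaac
The ERBB3 stretch lies at chr12:56097818-56097841 on the plus strand, within coding exon sequence, and the asparagine is residue 834. The EGFR stretch lies at chr7:55191752-55191775 (plus), that of ERBB2 at chr17:39725082-39725105 (plus) and that of AXL at chr19:41253680-41253703 (plus). The EPHA2 stretch lies at chr1:16132157-16132180 (minus) and that of MET at chr7:116782069-116782092 (plus). Each of the 6 lies within 1 exon. GC content of the 24 bases was 75% in AXL, 70.8% in EGFR and EPHA2, 66.7% in ERBB2, 54.2% in ERBB3 and 50% in MET. Over the third positions of all codons, GC content ran from 44.2% in MET and 57.9% in ERBB3 to 82.4% in EPHA2.

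Between 20457474 and 25173559 reads were assigned to genes per library. SCARNA13 itself had 7 reads over the SCARNA13 ASO libraries and 13 over the Control ASO libraries, too few to test its level, and the kit is one generally known to select polyadenylated RNA. Of 12 hepatocyte and liver cancer markers, 1 (SERPINA1) reached a mean of 1 FPKM (fragments per kilobase of gene, adjusted for library size), while ALB, APOB, APOC3, FGB and GPC3 were at 0. Their summed level was 1.53 to 2.89 FPKM in SCARNA13 ASO and 1.62 to 3.22 FPKM in Control ASO libraries, so the labelled liver origin is not visible in its defining markers. Of 5 epithelial markers, 3 (KRT8, KRT18 and KRT19) were abundant and CDH1 was at 0. Of 6 fibroblast markers, 1 (COL3A1) passed 1 FPKM, with a summed level of 6.24 to 8.60 FPKM in SCARNA13 ASO and 5.83 to 6.89 FPKM in Control ASO, and none of the 5 endothelial or 5 immune markers did. In bulk RNA, fewer cells of a type and less RNA per cell cannot be told apart. No label states that the libraries of a group stem from different cultures, and p-values therefore cover library-to-library spread alone, possibly technical.

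With the gene lengths the authors used, HCCLM3 cells expressed 9 of the 10 receptors at a mean of 1 FPKM or more, and INSR fell below. EPHA2 was the most abundant and AXL the next in 6 of 6 libraries. Together these 2 genes made up 70.5%, 71.4% and 74.5% of the summed FPKM of the 10 receptors in the SCARNA13 ASO libraries and 71.0%, 71.1% and 72.7% in the Control ASO libraries. Control ASO means then fell in the order FGFR4, DDR1, ERBB2, EGFR, MET, FGFR1, ERBB3 and INSR. In Control ASO, 4 steps of this order were larger than the spread over libraries, with ranges that did not touch: EPHA2 over AXL, AXL over FGFR4, FGFR1 over ERBB3, and ERBB3 over INSR. The SCARNA13 ASO ranges of EPHA2 and AXL overlapped. FGFR4, DDR1, ERBB2, EGFR, MET and FGFR1 formed a middle group whose neighbours overlapped in Control ASO. FGFR4 was above DDR1 in 2 of 6 libraries and ERBB2 above EGFR in 3 of 6, whereas DDR1 was above ERBB2 and EGFR above MET in 6 of 6.

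**Figure D1:**
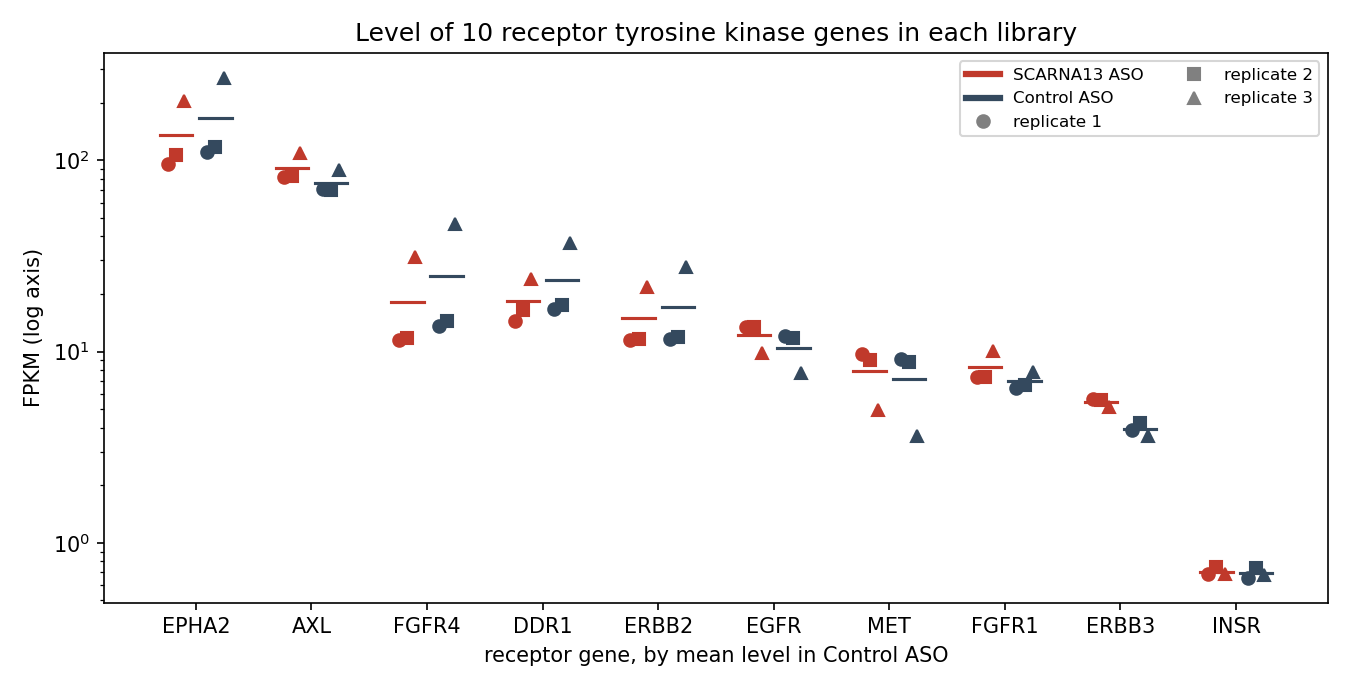
FPKM (log axis) of the 10 receptor genes in each library, SCARNA13 ASO in red left of Control ASO in blue, with a marker shape per replicate number and a bar at the group mean. EPHA2 and AXL lie above the others in every library, INSR lies under 1 FPKM, and ERBB3 is the gene whose 3 SCARNA13 ASO values all lie above its 3 Control ASO values.

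These levels depend on the gene length the authors divided by. For 9 of the 10 receptors, all but FGFR1, that length equals the union of all GENCODE 29 exons, which is far longer than a single mRNA for some of them. Per kilobase of the transcript with the longest coding sequence, an alternative chosen after seeing the data, the mean over 6 libraries became 66.7 FPKM for DDR1 (a factor of 3.17), 36.4 FPKM for ERBB2 (2.27) and 18.1 FPKM for FGFR1 (2.36). EPHA2 (158 FPKM) and AXL (91.3 FPKM) stayed on top and ERBB3 (6.85 FPKM) and INSR (1.55 FPKM) at the bottom, while DDR1 moved up to the place after AXL. INSR thus passed 1 FPKM at this length. Ratios of FPKM between SCARNA13 ASO and Control ASO are unaffected, since the length is the same in both. The filter of 1 FPKM for testing and the constant added before taking logs act on the level, however. Which genes are tested, and the log2 fold changes of low genes, therefore depend on the length. The fits were not rerun with the alternative lengths.

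Among 58 human receptor tyrosine kinase genes, all of them listed in the files, the 10 described here carried 86.0% of the summed mean FPKM in SCARNA13 ASO and 86.3% in Control ASO. Of the 48 others, 10 averaged 1 FPKM or more, and 6 were at 0 in all libraries. EPHB4, an ephrin-B receptor, was the highest of them and came after EPHA2 and AXL in the family, with 27.1 ± 10.2 FPKM in SCARNA13 ASO and 28.3 ± 16.0 FPKM in Control ASO (SD, n = 3 each). TYRO3, a relative of AXL, followed with 3.86 ± 1.95 FPKM in SCARNA13 ASO and 4.83 ± 3.13 FPKM in Control ASO. LMTK2, RYK and ROR2 averaged 2.64, 2.47 and 2.37 FPKM over the 6 libraries. With limma-trend, 0 of these 10 passed in the fit on group alone, with 0 at an unadjusted p under 0.05, and 0 with the replicate block and GC correction, with 1 at that level (31.3% of all genes).

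**Figure D2:**
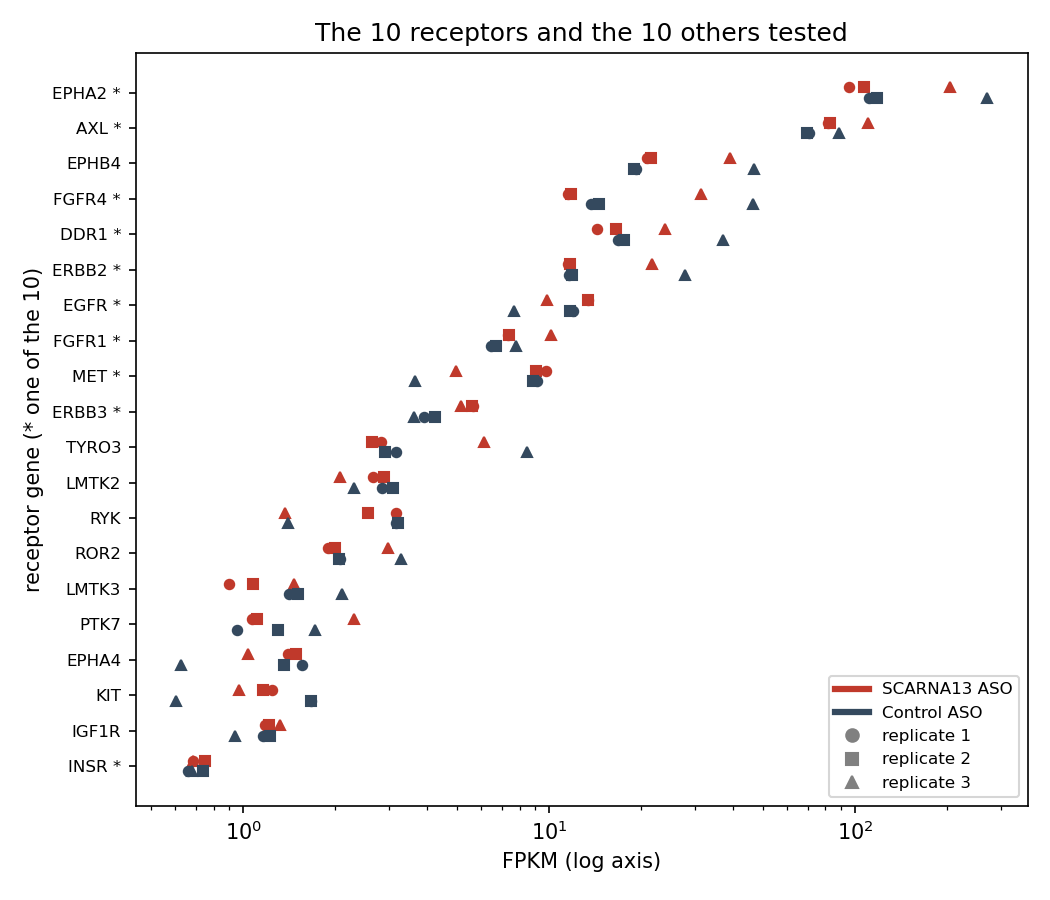
FPKM (log axis) in each library of the 10 receptors (asterisks) and of the 10 other receptor tyrosine kinase genes that averaged 1 FPKM or more, ordered by mean level, SCARNA13 ASO (red) above Control ASO (blue) within each gene. EPHB4 is the gene from outside the 10 that lies among the highest, and triangles, the replicate 3 libraries, stand apart from circles and squares for most genes.

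Across groups, ERBB3 was the receptor with the clearest difference. The remaining receptors differed by amounts comparable to, or smaller than, the spread over all libraries of a group, replicate 3 included. In limma-trend on log2(FPKM + 0.5) with group as the only term, 0 of the 9 tested receptors had a Benjamini-Hochberg adjusted p under 0.05, against 0% of the 10120 genes tested. At an unadjusted p under 0.05 there was 1 receptor (ERBB3) and 173 genes, and limma-voom on the recovered reads called 0 genes, with 166 at that unadjusted level. Deviations from the group means set replicate 3 apart but did not pair replicates 1 and 2 by number (0.84 and 0.78 for the same number, 0.81 for both crossed pairs). With the replicate number as a block and each library's GC trend removed, 1 of 9 receptors (ERBB3) passed, upward, against 5.21% of 10104 genes (309 up, 217 down). In that limma-trend fit 7 of the 9 had an unadjusted p under 0.05, against 31.3% of all genes. With replicates 1 and 2 only, 3 of 9 passed (ERBB3 and AXL up, FGFR4 down), against 9.11% of genes. There, 5 of the 9 had an unadjusted limma-trend p under 0.05, against 30.5% of genes. Counts this small over 9 genes were not tested against these shares. The median fold change of the 9 on the log2 scale was 0.17, beside -0.02 for all tested genes in the group-only fit, and 0.16 beside 0.00 with block and GC correction. The median size of a change, sign aside, was 0.24 for the 9 and 0.14 for all genes with block and GC correction.

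Turning to the EGFR family, ERBB3, the receptor for neuregulins, had 5.62, 5.59 and 5.15 FPKM in SCARNA13 ASO libraries 1 to 3, against 3.90, 4.22 and 3.63 FPKM in Control ASO libraries 1 to 3. On the FPKM scale the lowest SCARNA13 ASO library lay above the highest Control ASO library, and this held for 1 of the 10 receptors, ERBB3, against 8.44% of tested genes. The means were 5.45 ± 0.265 FPKM in SCARNA13 ASO and 3.92 ± 0.297 FPKM in Control ASO (SD, n = 3 each), and the exact two-sided permutation p was 0.1, the smallest that 3 against 3 allows. The group-only fit gave a log2 fold change of 0.43 ± 0.15 (SE; 95% interval 0.06 to 0.80) with a limma adjusted p of 1.0. With the block and GC correction it was 0.47 ± 0.07 (0.30 to 0.64), or 1.38-fold, with a limma adjusted p of 0.0384. The call was lost with the block alone (adjusted p = 0.0776) and with block and GC correction when replicate 1 (0.145) or replicate 2 (0.146) was left out, and was kept without replicate 3 (0.0360). Within pairs the ratio was 1.44, 1.32 and 1.42. ERBB3 rested on 3394 reads in SCARNA13 ASO and 2412 in Control ASO, a scaled ratio of 1.39 (95% interval 1.31 to 1.46, counting error only).

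EGFR, the receptor for EGF and related ligands, had 13.4, 13.4 and 9.87 FPKM in SCARNA13 ASO and 12.0, 11.7 and 7.69 FPKM in Control ASO. Replicate 3 was the low library of both groups, and the groups overlapped through it. The log2 fold change was 0.23 ± 0.25 in the group-only fit and 0.23 ± 0.06 with block and GC correction (limma adjusted p = 0.0767), so EGFR did not pass. ERBB2, which has no ligand of its own and serves as the preferred partner of ERBB3, had 11.5, 11.7 and 21.7 FPKM in SCARNA13 ASO and 11.6, 11.9 and 27.7 FPKM in Control ASO. Libraries 1 and 2 were nearly equal between the groups, and the FPKM gap came with replicate 3. As a share of all reads assigned to genes the replicate 3 ratio was 0.937 in place of 0.781, and scaling by total reads gave a group-only log2 fold change of -0.03. On the deposited scale its log2 fold change was -0.13 ± 0.44 in the group-only fit and -0.07 ± 0.06 (95% interval -0.22 to 0.08) with block and GC correction. ERBB3 was 0.489, 0.479 and 0.238 times as high as ERBB2 in SCARNA13 ASO libraries 1 to 3 and 0.337, 0.355 and 0.131 times in Control ASO libraries 1 to 3. The ratio was higher in SCARNA13 ASO in each pair, though replicate 3 was low in both groups. ERBB4, the remaining family member, averaged 0.0019 FPKM over the 6 libraries, with 0 reads in SCARNA13 ASO and 4 in Control ASO.

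MET, the receptor for hepatocyte growth factor, had 9.74, 9.02 and 4.96 FPKM in SCARNA13 ASO and 9.13, 8.83 and 3.64 FPKM in Control ASO. Replicate 3 was again low in both groups, and the groups overlapped. Its log2 fold change was 0.17 ± 0.42 in the group-only fit and 0.16 ± 0.08 with block and GC correction (limma adjusted p = 0.229). AXL, the receptor for GAS6, had 81.4, 82.9 and 110 FPKM in SCARNA13 ASO and 70.9, 69.7 and 88.8 FPKM in Control ASO. Within each pair SCARNA13 ASO was the higher, by 1.15, 1.19 and 1.24 times, while the groups overlapped through Control ASO replicate 3. The log2 fold change was 0.25 ± 0.25 in the group-only fit and 0.30 ± 0.06 with block and GC correction (limma adjusted p = 0.0560). With replicates 1 and 2 only, AXL passed at 0.22 (limma adjusted p = 0.0408). With block and GC correction it passed without replicate 3 (limma adjusted p = 0.0415), but not without replicate 1 (0.147) or replicate 2 (0.181).

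FGFR1, a receptor for FGF2 among other ligands, had 7.35, 7.41 and 10.1 FPKM in SCARNA13 ASO and 6.47, 6.71 and 7.79 FPKM in Control ASO. Its groups overlapped through Control ASO replicate 3 alone. Its log2 fold change was 0.22 ± 0.20 in the group-only fit and 0.25 ± 0.07 with block and GC correction (limma adjusted p = 0.0957). FGFR4 had 11.5, 11.8 and 31.3 FPKM in SCARNA13 ASO and 13.7, 14.5 and 46.2 FPKM in Control ASO. Replicate 3 was far above replicates 1 and 2 in both groups, a shift larger than any difference between SCARNA13 ASO and Control ASO. Its log2 fold change was -0.36 ± 0.61 in the group-only fit and -0.28 ± 0.05 with block and GC correction (limma adjusted p = 0.0517). With replicates 1 and 2 only, FGFR4 passed, at -0.27 (limma adjusted p = 0.0468). The FGFR4 to FGFR1 ratio was 1.56, 1.59 and 3.09 in SCARNA13 ASO and 2.11, 2.17 and 5.94 in Control ASO, lower in SCARNA13 ASO in each pair.

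EPHA2, a receptor for ephrin-A ligands on neighbouring cells, had 95.6, 107 and 205 FPKM in SCARNA13 ASO and 111, 118 and 270 FPKM in Control ASO. The groups overlapped, and replicate 3 was the high library in both. The log2 fold change was -0.25 ± 0.48 in the group-only fit and -0.18 ± 0.05 with block and GC correction (limma adjusted p = 0.0839). DDR1, a receptor for collagen, had 14.4, 16.6 and 23.9 FPKM in SCARNA13 ASO and 16.8, 17.6 and 37.1 FPKM in Control ASO. Most of its difference lay in replicate 3, where the ratio was 0.644, beside 0.858 and 0.942 in replicates 1 and 2. Its log2 fold change was -0.31 ± 0.38 in the group-only fit and -0.24 ± 0.07 with block and GC correction (limma adjusted p = 0.0930). INSR had 0.684, 0.748 and 0.683 FPKM in SCARNA13 ASO and 0.657, 0.737 and 0.680 FPKM in Control ASO. Its groups overlapped almost completely, with 528 reads in SCARNA13 ASO and 507 in Control ASO, a scaled ratio of 1.03 (95% interval 0.906 to 1.16, counting error only). INSR lay under the filter of 1 FPKM and was therefore not among the genes tested.

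**Figure D3:**
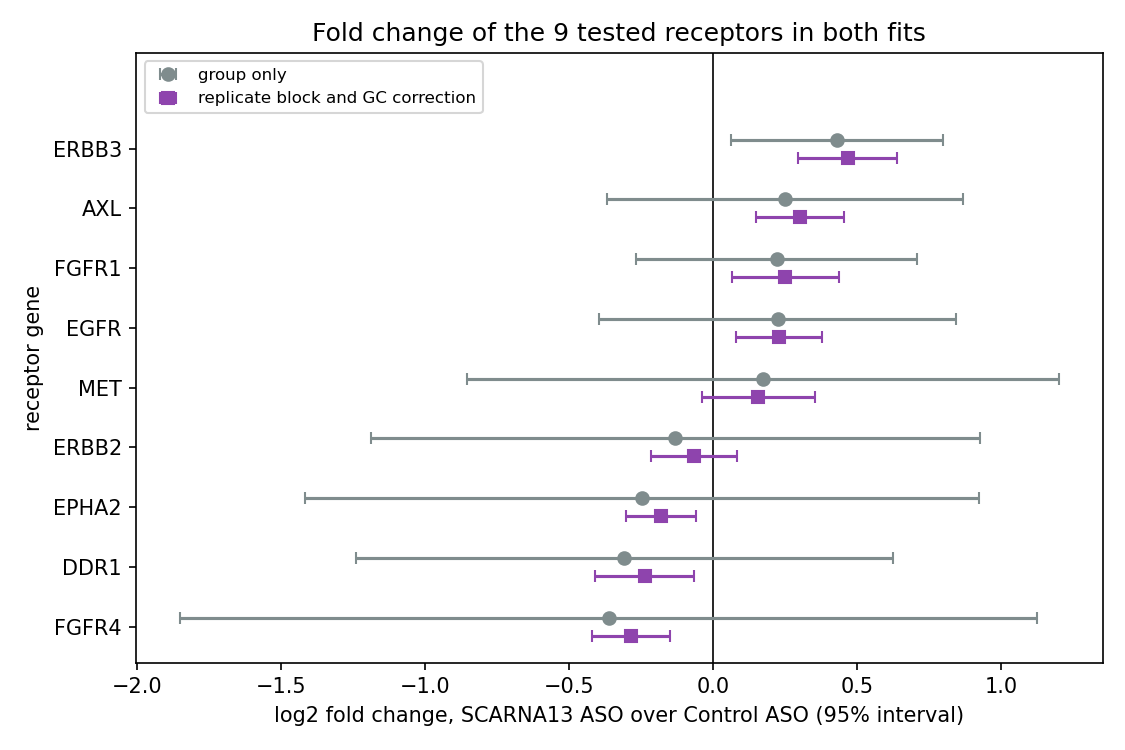
Log2 fold change of SCARNA13 ASO over Control ASO on the log2(FPKM + 0.5) scale for the 9 tested receptors, with 95% intervals, from the group-only fit (grey circles) and the fit with replicate block and GC correction (purple squares). No estimate changes sign, and the intervals narrow. The 4 negative estimates move toward 0, that of ERBB2 from -0.13 to -0.07, while that of AXL moves from 0.25 to 0.30. With group only the interval of ERBB3 alone lies clear of 0.

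Each receptor differed in the same direction in all 3 pairs of same-numbered libraries, which held for all 10 (the 9 tested and INSR), against 53.6% of tested genes. EGFR, ERBB3, MET, AXL, FGFR1 and INSR (6) were higher in SCARNA13 ASO and EPHA2, FGFR4, DDR1 and ERBB2 (4) were lower. For INSR, ERBB2 and MET the differences in some pairs were small, with pair ratios of 1.04, 1.02 and 1.00 for INSR, 0.991, 0.980 and 0.781 for ERBB2, and 1.07, 1.02 and 1.36 for MET. As a share of assigned reads the ratios of ERBB2 were 1.01, 0.984 and 0.937, so its pairs did not share a direction on that scale. The share over all tested genes was computed on FPKM only. The members are not independent of one another, since their values move together across libraries with the replicate 3 shift described next.

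**Figure D4:**
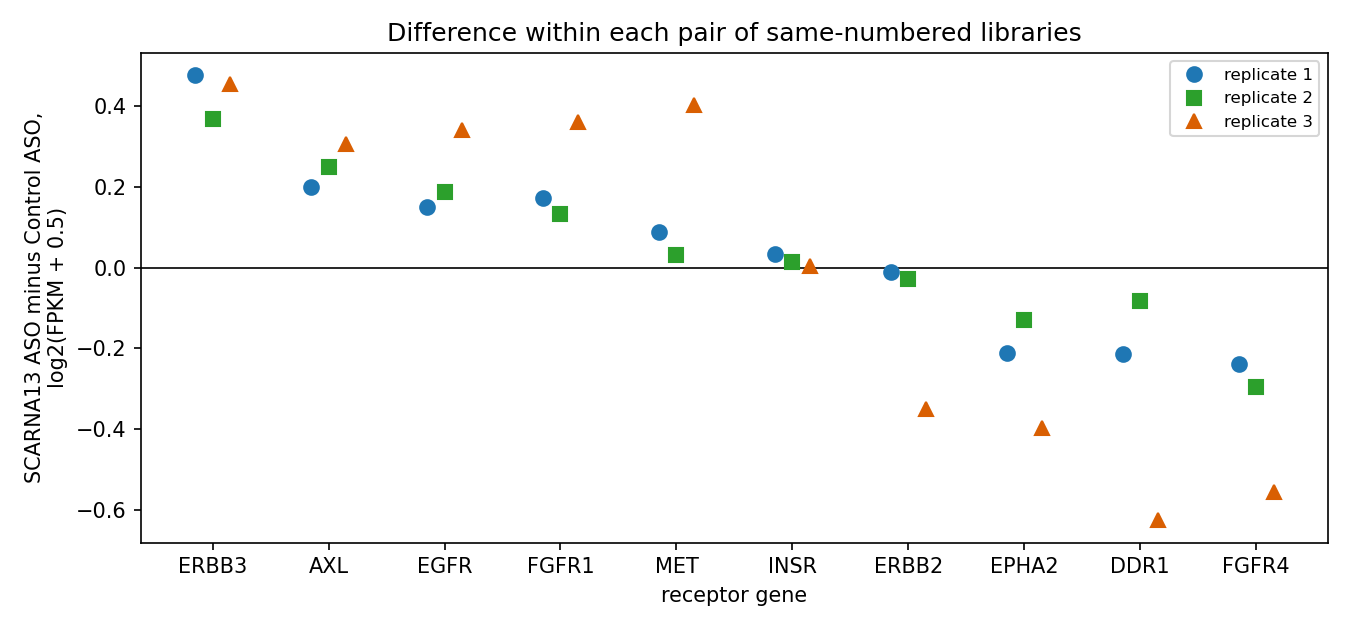
Difference between the SCARNA13 ASO and the Control ASO library of the same replicate number, in log2(FPKM + 0.5), for each receptor. On this scale ERBB3 shows about the same difference in all pairs, while for the other 8 tested receptors replicate 3 (triangles) lies farthest from 0. That contrast depends on the library sizes. As a share of assigned reads, pair ratios were 1.47, 1.33 and 1.70 for ERBB3. They were 0.862, 0.811 and 0.813 for FGFR4 and 0.883, 0.916 and 0.911 for EPHA2. Pair 3 stayed farthest from 1 for EGFR, MET, AXL, FGFR1, DDR1 and ERBB2.

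The direction of the difference split the tested receptors by transcript GC content. The 5 that were higher in SCARNA13 ASO had 42.4% to 53.9% GC and the 4 that were lower had 57.5% to 63.6%. The signs were the same with block and GC correction and with replicates 1 and 2 only, and the reason for the split was not tested. Over the 9 receptors, the log2 fold change correlated with GC content at Pearson r = -0.80 in the group-only fit. It was -0.74 with block and GC correction and -0.66 with replicates 1 and 2 only. The shift of the replicate 3 libraries was taken as replicate 3 minus the mean of replicates 1 and 2 on the log2 scale. Over the 9 receptors it correlated with GC content at Pearson r = 0.94 in SCARNA13 ASO and 0.98 in Control ASO. The order was not strict. DDR1, at 61.6% GC, was shifted by 0.62 in SCARNA13 ASO and 1.09 in Control ASO, less than ERBB2 at 57.5% (0.88 and 1.21). FGFR4, with the highest GC content, was shifted by 1.39 in SCARNA13 ASO and 1.68 in Control ASO, and EPHA2 by 1.01 in SCARNA13 ASO and 1.24 in Control ASO. MET, with the lowest GC content, was shifted by -0.85 in SCARNA13 ASO and -1.20 in Control ASO, and EGFR by -0.42 in SCARNA13 ASO and -0.59 in Control ASO. ERBB3, at 52.0% GC, had shifts of -0.11 in SCARNA13 ASO and -0.14 in Control ASO, near 0 on the deposited scale. The zero of every such shift is set by the library size behind the FPKM values, which was 0.760 (SCARNA13 ASO) and 0.633 (Control ASO) times the reads in replicate 3 and between 1.21 and 1.24 times elsewhere. Scaled to the total reads assigned to genes (RPM), a scale added after seeing the data, ERBB3 had 60.1, 59.2 and 33.9 RPM in SCARNA13 ASO and 40.8, 44.5 and 19.9 RPM in Control ASO, so replicate 3 was its low library in both groups. On that scale MET still moved down the most in replicate 3 and FGFR4 up the most, and the ERBB3 groups overlapped. On the FPKM scale the shift was larger in size in Control ASO for 7 of the 9 tested receptors and in SCARNA13 ASO for 2, AXL (0.42 in SCARNA13 ASO, 0.34 in Control ASO) and FGFR1 (0.43 in SCARNA13 ASO, 0.23 in Control ASO).

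The receptors followed a trend shared by the whole transcriptome. Over 10104 tested genes, GC content and the replicate 3 shift correlated across genes at Pearson r = 0.80 in SCARNA13 ASO and 0.79 in Control ASO, and genes are not independent replicates. Within pair 3, the median difference between SCARNA13 ASO and Control ASO was 0.11 in the decile of genes with the lowest GC content and -0.29 in that with the highest, whereas in pair 2 these medians were -0.02 and 0.06. DDR1 in pair 3 stood at -0.62 beside a median of -0.22 for its GC decile, and FGFR4 at -0.55 beside -0.29. In pair 1, where that trend was nearly flat, FGFR4 stood at -0.24 beside -0.03, EPHA2 at -0.21 beside -0.01 and ERBB3 at 0.47 beside -0.02, while ERBB2 lay near its decile median (-0.01 beside -0.02). Without the Control ASO replicate 3 library, the group-only log2 fold change turned to 0.17 for EPHA2, 0.20 for FGFR4, 0.06 for DDR1, 0.27 for ERBB2 and -0.23 for MET. That fit keeps replicate 3 in SCARNA13 ASO only, so the replicate 3 shift enters the difference between groups. With replicates 1 and 2 only, the values were -0.17 for EPHA2, -0.27 for FGFR4, -0.15 for DDR1, -0.02 for ERBB2 and 0.06 for MET. What set the replicate 3 libraries apart was not tested.

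**Figure D5:**
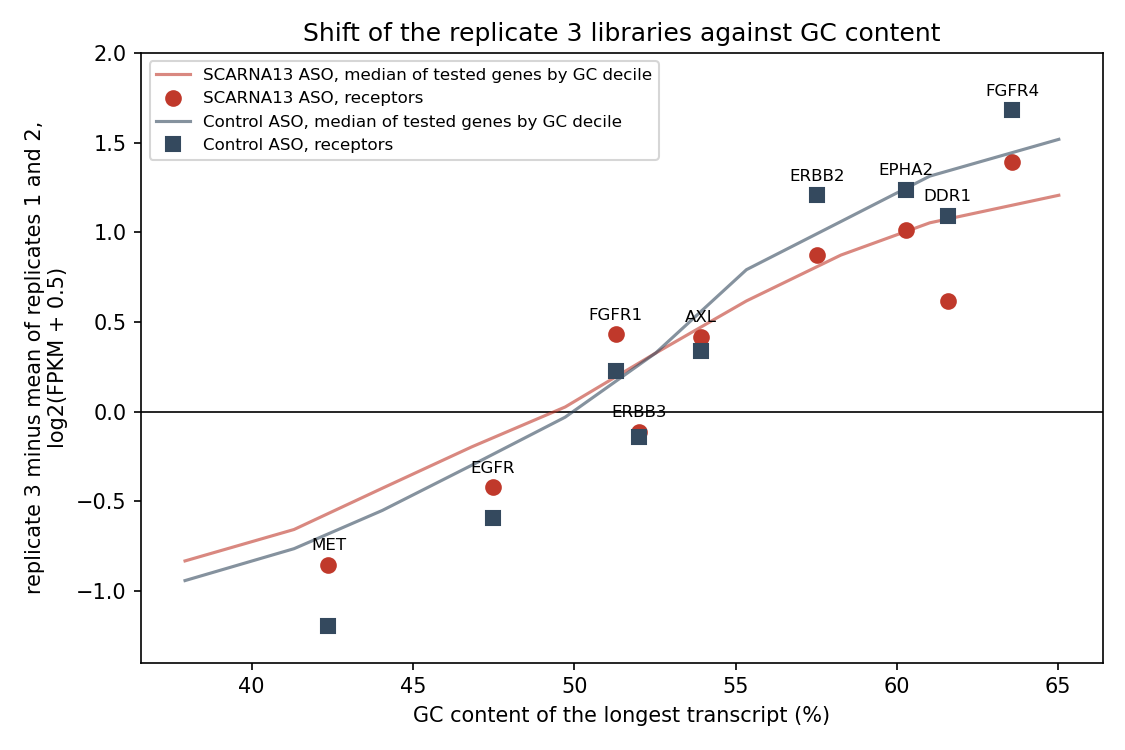
Shift of replicate 3 from the mean of replicates 1 and 2 in log2(FPKM + 0.5) against transcript GC content for the 9 tested receptors, SCARNA13 ASO (red circles) and Control ASO (blue squares), with lines through the medians of tested genes by GC decile. Receptors under 50% GC lie below 0 and those over 55% GC well above 0 in both groups, along the lines, with MET, EGFR, ERBB3, AXL and DDR1 below the line of their group.

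The genes most similar to the leading receptors shared that shift. Over the 6 libraries, GAS2L1, DDX54 and FBXL18 had the highest Pearson correlation with EPHA2 of log2(FPKM + 0.5), at 0.9992 to 0.9998, and 2726 of 10120 tested genes correlated with it above 0.95. CALR (0.9991) and MARS (0.9982) were close to AXL, with 267 genes above 0.95, and CCDC94, PSMC3 and RNF40 were the closest to FGFR4 (0.9995 to 0.9998), with 2696. With this many genes above that level, the likeness does not single out the genes named.

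Some reads cannot be assigned to a receptor with certainty, because the kit is one generally known not to mark strand. ERBB2 shares 571 exonic bases (5.53%) with MIEN1 and 194 (1.88%) with PGAP3, both on the opposite strand, and EGFR shares 186 (1.49%) with the antisense gene EGFR-AS1. AXL shares 67 (1.30%) with AC011510.1 and FGFR1 156 (1.21%) with AC087623.1, both antisense genes. ERBB3 shares 31 bases with AC034102.2 and DDR1 shares 90 (0.987%) with MIR4640, both on the same strand, where strand would not separate the reads. No exon of another gene lies over the exons of MET, FGFR4, INSR or EPHA2.

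Of 23 listed ligands of the 10 receptors, 12 were tested, and the 2 that passed, GAS6 and FGF2, rose in SCARNA13 ASO cells. They passed with block and GC correction, where 5.21% of all genes passed. In that fit 6 ligands had an unadjusted p under 0.05 (31.3% of all genes did so), while the group-only limma-trend fit passed 0, with 0 at that unadjusted level. HGF and INS were at 0 in every library. GAS6, the ligand of AXL, had 21.7, 22.2 and 50.5 FPKM in SCARNA13 ASO and 13.6, 13.8 and 33.7 FPKM in Control ASO. It was higher in SCARNA13 ASO in each pair, with a log2 fold change of 0.70 ± 0.06 (limma adjusted p = 0.0360). FGF2, a ligand of FGFR1, had 9.32, 9.96 and 4.17 FPKM in SCARNA13 ASO and 6.72, 6.64 and 2.17 FPKM in Control ASO, at 0.57 ± 0.08 (limma adjusted p = 0.0380). Both overlapped between groups because replicate 3 was far from replicates 1 and 2. With the block alone the adjusted p was 0.0586 for GAS6 and 0.0760 for FGF2. NRG1, a neuregulin that binds ERBB3, averaged 15.5 ± 2.10 FPKM in SCARNA13 ASO and 14.6 ± 2.67 FPKM in Control ASO and did not pass. Neither did EPGN (0.78, limma adjusted p = 0.0567) or HBEGF (-0.32, limma adjusted p = 0.0675), which are ligands of EGFR. EPGN passed with replicates 1 and 2 only (limma adjusted p = 0.0330) and with block and GC correction without replicate 3 (0.0360).

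Coreceptors, sheddases and processing proteases gave 7 tested genes of 15, and SDC1 and GPC1, heparan sulfate proteoglycans that hold growth factors at the cell surface, rose with block and GC correction. These 2 of 7 stand beside 5.21% of all genes called in that fit. At an unadjusted limma-trend p under 0.05 there were 4 of the 7, against 31.3% of all genes. SDC1 averaged 109 ± 42.8 FPKM in SCARNA13 ASO and 81.6 ± 30.7 FPKM in Control ASO, at 0.48 ± 0.07 (limma adjusted p = 0.0406). GPC1 averaged 23.5 ± 15.9 FPKM in SCARNA13 ASO and 20.0 ± 16.2 FPKM in Control ASO, at 0.40 ± 0.05 (limma adjusted p = 0.0365). For both, calls were lost with the block alone (limma adjusted p = 0.0814 for SDC1, 0.128 for GPC1). GPC1 turned to -0.19 in the group-only fit without SCARNA13 ASO replicate 3, which keeps replicate 3 in Control ASO only. With replicates 1 and 2 only it was 0.41. CD44, a hyaluronan receptor that can present growth factors, had 79.0, 72.7 and 69.4 FPKM in SCARNA13 ASO and 95.8, 89.8 and 91.7 FPKM in Control ASO. All 3 SCARNA13 ASO values lay below all Control ASO values, and groups did not overlap, in either direction, for 8.44% of tested genes. The limma adjusted p was 0.0504 with a log2 fold change of -0.33 ± 0.06 (limma adjusted p = 0.0359 without replicate 3). FURIN, a protease that cleaves the INSR and MET precursors, was at -0.19 (adjusted p = 0.0951).

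Downstream of the receptors, 1 of 21 tested adaptors and signal transducers passed with block and GC correction, against 5.21% of all genes. In that limma-trend fit 5 of the 21 had an unadjusted p under 0.05, against 31.3% of all genes. The gene that passed was MAP2K2, a kinase that activates ERK. It had 39.4, 37.8 and 82.9 FPKM in SCARNA13 ASO and 30.9, 30.3 and 73.9 FPKM in Control ASO. It was higher in SCARNA13 ASO in each pair, at 0.34 ± 0.05 (limma adjusted p = 0.0401, and 0.117 with the block alone). Without SCARNA13 ASO replicate 3, a fit that keeps replicate 3 in Control ASO only, its group-only log2 fold change turned to -0.09. With replicates 1 and 2 only it was 0.33. SHC1, an adaptor that docks on activated receptors, averaged 199 ± 73.9 FPKM in SCARNA13 ASO and 174 ± 81.3 FPKM in Control ASO (0.29, adjusted p = 0.0541), and passed with replicates 1 and 2 only or without replicate 3 (limma adjusted p = 0.0468 in both). MAPK3, which encodes ERK1, stood at 0.25 (adjusted p = 0.0659), IRS2, an adaptor of INSR, at 0.20 (0.106) and HRAS at -0.01 (0.911).

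Of 14 tested negative regulators 0 passed with block and GC correction, with 8 at an unadjusted p under 0.05 in limma-trend (31.3% of all genes), and 0 with group only, with 1 at that level. GRB10, an adaptor that restrains INSR signalling, had 4.33, 3.93 and 4.06 FPKM in SCARNA13 ASO and 3.11, 3.33 and 2.37 FPKM in Control ASO. Its groups did not overlap, as was so for 8.44% of tested genes, and it stood at 0.46 (limma adjusted p = 0.0697). GRB7, a relative of GRB10 that binds ERBB2, was counted in this list, though nothing here shows that it restrains a receptor. It stood at -0.58 (limma adjusted p = 0.0695). CBL, the ubiquitin ligase that marks active receptors for degradation, was at -0.25 (0.0876), and the phosphatase gene PTPRJ at 0.29 (0.0951). The phosphatase genes PTPRF and PTPN1 were the most abundant, averaging 55.7 and 30.5 FPKM over the 6 libraries. Median log2 fold changes with block and GC correction were 0.05 for the ligands, 0.05 for the coreceptors, 0.02 for the adaptors and -0.01 for the negative regulators, beside 0.00 for all genes. With block and GC correction, 3.06% of all genes were called upward, and 0 of the 14 negative regulators. The 5 rises in these lists were GAS6 and FGF2 of 12 ligands, SDC1 and GPC1 of 7 coreceptors and proteases, and MAP2K2 of 21 adaptors. All 5 lost the call with block and GC correction when replicate 1 or replicate 2 was left out (limma adjusted p between 0.0872 and 0.143) and kept it without replicate 3 (0.0285 to 0.0360).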

How the data were processed

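Libraries were made with an Illumina TruSeq RNA kit from 1 µg of total RNA, per the labels' protocols. The deposited files hold 1 value per gene and library with the gene length beside it. The file headers do not name the unit, and it was inferred to be FPKM as deposited by the authors: multiplied by gene length, 100% of values came out as whole numbers of reads at a tolerance of 0.01, so reads were recovered. The value of 1 read implies library sizes of 1.24, 1.22 and 0.760 times the reads in SCARNA13 ASO libraries and 1.21, 1.22 and 0.633 times in Control ASO libraries. TopHat2 2.0.9, Bowtie2 2.0.6 and hg19 are named in the submitters' processing notes, and the counting tool is not given in the sources used here. GENCODE 29 holds 58039 of the gene identifiers, and start and end agree for 56647 of them, so coordinates are GRCh38.

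Groups and replicate numbers came from the sample titles. Genes averaging 1 FPKM or more in the 6 libraries were tested with limma 3.58.1 (limma-trend, R 4.3.3) on log2(FPKM + 0.5), with group as the only term, two-sided, at a Benjamini-Hochberg adjusted p under 0.05 over all genes tested. Fold changes on this scale understate the change of low genes. As a check of pairing, deviations from group means of same-numbered libraries correlated at 0.84, 0.78 and 0.91 across genes, so numbers entered as a block, taken from the titles. The crossed pairs of replicates 1 and 2 both reached 0.81, so the values set apart replicate 3 only and do not pair replicates 1 and 2. The paired fit had the replicate number as a block, after a loess trend (span 0.5) of each library on the GC content of the longest GENCODE 29 transcript was subtracted. Exact two-sided permutation tests compared 3 with 3 FPKM values.

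The members, the lists of other receptors, ligands, coreceptors, adaptors and negative regulators, and the paired fit were chosen with earlier results of these data known. The text names all members, the 5 most abundant other receptors, up to 4 genes of each other list with the smallest p in the paired fit and its 2 most abundant genes, and the 3 genes most correlated with each of the 3 receptors of highest Control ASO level; further genes are named as family, marker or 0-level entries. Alternatives were other pseudocounts, no filter, block or GC correction alone, replicates or libraries left out, scaling by total reads, limma-voom on recovered reads and, added after seeing the data, reads as a share of all assigned reads and lengths of single transcripts. Sequences came from GENCODE 29 transcripts. No sequence is given for FGFR1. A gene that the naming rule selects is not reported here.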

Additional observations from a re-analysis of the deposited data

How the results depend on the processing

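Against 0 receptors and 0 genes in the group-only fit, the replicate block with GC correction called 1 receptor and 526 genes, and replicates 1 and 2 only called 3 receptors and 922 genes. With block and GC correction and 1 replicate number left out, calls ran from 0 to 2 receptors and from 0 to 763 genes (14 without replicate 1, 0 without replicate 2, 763 without replicate 3). The block alone called 0 genes, with 2598 at an unadjusted p under 0.05. Under pseudocounts of 0.1 and 1, no filter (28762 genes), GC correction without block, each library left out, scaling by total reads and limma-voom, the count stayed at 0. Calls that the block and GC correction added are given beside each gene, and the block alone changed no call.

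Over the settings, ERBB3 ran from 0.38 to 0.52 in log2 fold change. In the 12 settings other than leaving out 1 library, no tested receptor turned sign. Leaving out 1 library at a time, ranges were 0.03 to 0.37 for EGFR, 0.38 to 0.48 for ERBB3, 0.11 to 0.36 for AXL and 0.08 to 0.30 for FGFR1. Such fits hold replicate 3 in unequal shares in the groups, so its shift enters the fold change. The sign turned in the ranges of ERBB2 (-0.42 to 0.27), MET (-0.23 to 0.46), FGFR4 (-0.83 to 0.20), EPHA2 (-0.58 to 0.17) and DDR1 (-0.51 to 0.057), and none of these passed in those fits. It also turned for EPHB4 (-0.27 to 0.44), TYRO3 (-0.57 to 0.22), RYK (-0.42 to 0.18), ROR2 (-0.26 to 0.10), LMTK2 (-0.20 to 0.016), HRAS (-0.61 to 0.52), MAPK3 (-0.25 to 0.65), MAP2K2 (-0.090 to 0.69), SHC1 (-0.062 to 0.58), IRS2 (-0.0018 to 0.29), NRG1 (-0.065 to 0.20), PTPRF (-0.19 to 0.31), PTPN1 (-0.15 to 0.010), FURIN (-0.61 to 0.19) and GPC1 (-0.19 to 0.92). With other settings HRAS turned to 0.0017 (replicates 1 and 2 only) and 0.0053 (scaled by total reads), and PTPN1 to 0.040 (scaled by total reads). With block and GC correction, HRAS turned to 0.016 without replicate 2, and PTPN1 to 0.010 and ROR2 to 0.0065 without replicate 1. The cause was not tested. Per kilobase of a single transcript, the levels of DDR1, ERBB2, FGFR1 and others moved as given with the levels. With 3 libraries a group, small differences were not detectable at this spread. Of the 10 receptors, INSR had the fewest reads, 528 in SCARNA13 ASO and 507 in Control ASO.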
